A study of Mus musculus with 6 samples.

Results

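The 10 genes described here encode amino acid carriers of the renal tubule: Slc7a7, Slc7a8, Slc7a9, Slc7a12, Slc7a13, Slc3a1, Slc3a2, Slc6a18, Slc6a19 and Slc6a20b. They were chosen by name, as carriers of the Slc7, Slc3 and Slc6 families, and they are 10 of the 19505 gene symbols that the array annotation gives. Each had 1 transcript cluster, the unit of measurement of the array, so all 10 were measured and none was removed by a filter. Their RNA came from tubular epithelial cells released with collagenase from mouse kidneys that had been ischemic for 30 min and reperfused for 24 h, an ischemic injury that both arms share. The PT2385 arm (IRPT, 3 arrays) received PT2385, an inhibitor of the hypoxia-inducible factor HIF-2α, in doses of 10 mg/kg injected 16 h ahead of surgery and again 1, 8 and 20 h later. The vehicle arm (IR, 3 arrays) had the same injury and no compound. The labels name the arms only as IRPT and IR, and the protocol once spells the injected compound PT2384. The labels state no strain, age, sex or number of mice behind each array, and uninjured kidneys were not analysed here.

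The tubule recovers nearly all filtered amino acids. Carriers of the brush border bring them into the cell and other carriers of the basolateral membrane release them to the blood. Many Slc7 proteins, those of this group among them, are of the light chain type, which reaches the membrane with a heavy chain. The known ones are rBAT (Slc3a1) at the brush border and 4F2hc (Slc3a2) at the basolateral side. Slc6 proteins are sodium-coupled carriers that work without an Slc3 partner, and Slc6a19 reaches the brush border with the help of collectrin (Cltrn). In the mouse kidney Slc7a13 is known to be higher in males and Slc7a12 higher in females.

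The sequences just before the starts of Slc3a1 and Slc7a9 are shown because their proteins form the cystine carrier of the brush border and neither transcript passed the test between the arms described below. They cover the 250 bases before the first start listed for each gene, on the plus strand, from RefSeq with build GRCm38.p6. The Slc3a1 window is chr17:85028097-85028346 and the Slc7a9 window is chr7:35448842-35449091.
Slc3a1: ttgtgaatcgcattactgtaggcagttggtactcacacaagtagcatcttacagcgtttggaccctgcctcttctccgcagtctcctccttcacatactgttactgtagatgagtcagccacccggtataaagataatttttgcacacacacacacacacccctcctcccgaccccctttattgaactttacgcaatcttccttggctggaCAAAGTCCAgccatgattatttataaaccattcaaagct
Slc7a9: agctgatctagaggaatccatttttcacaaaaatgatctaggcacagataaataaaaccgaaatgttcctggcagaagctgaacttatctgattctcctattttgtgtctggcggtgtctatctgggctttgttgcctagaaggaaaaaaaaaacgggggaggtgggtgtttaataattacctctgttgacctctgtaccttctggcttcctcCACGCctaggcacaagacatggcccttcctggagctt
Capitals mark motif matches on either strand. In Slc3a1 they mark CAAAGTCCA, a motif of HNF4α, a transcription factor of the proximal tubule, which begins 39 bases before the start. In Slc7a9 they mark the reverse complement of GCGTG, which with ACGTG makes up the core recognised by hypoxia-inducible factors, and which begins 37 bases before the start. Among 27025 windows of this length, 1 per gene, 0.381% held CAAAGTCCA and 38.6% held ACGTG or GCGTG. The RefSeq table held windows for 7 of the 10 genes (not for Slc7a12, Slc7a13 and Slc6a18), of which 2, Slc7a9 and Slc3a2, held ACGTG or GCGTG and 1, Slc3a1, held CAAAGTCCA. The HNF1 half-site GTTAAT, was in 0 of the 7 windows and in 6.52% of all windows. CAAAGTCCA was added to the search after the Slc3a1 sequence had been seen. The motifs do not overlap, and a match describes the letters only.

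The label of the isolates as tubular epithelium was set beside marker lists. All 11 measured proximal tubule markers had a mean log2 signal above 4.47, the top value among the array medians of negative control rows, as did all 10 markers of the loop and distal tubule and all 10 of the collecting duct. The isolates also carried signal of other cells, with all 5 endothelial, all 5 stromal, all 3 podocyte and 5 of 7 immune markers above this level. The T cell gene Cd3e and the B cell gene Cd79a were not above it. The level is a low one, since 16408 of all 22206 clusters had a mean signal above it. Counts of markers above it therefore do little to check the label. Proximal tubule markers averaged 9.93 to 10.94 in the PT2385 arrays and 10.10 to 10.41 in the vehicle arrays. Markers of the loop and distal tubule averaged 9.01 to 10.07 in the PT2385 arrays and 8.29 to 8.40 in the vehicle arrays, so these groups did not overlap. Collecting duct markers averaged 8.48 to 8.69 in the PT2385 arrays and 8.00 to 8.18 in the vehicle arrays, without overlap. All 10 had a positive difference, as did 53.5% of all clusters. Immune markers averaged 5.33 to 5.66 in the PT2385 arrays and 5.87 to 6.25 in the vehicle arrays, again without overlap. Gene by gene, the arms did not overlap for 9 of 10 loop and distal tubule, 8 of 10 collecting duct and 3 of 7 immune markers. This held for 20.7% of all clusters. Of the 7 immune markers 5 had a negative and 2 a positive difference. In the limma test described below, Cldn19 passed as higher (adjusted p = 0.0259) and Lyz2 as lower (adjusted p = 0.0202). In RNA from mixed cells, fewer cells of a type cannot be told apart from less RNA per cell, and the part of these lists in the results below was not tested.

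The arms also differed in genes of the Y chromosome. The translation factor gene Eif2s3y had log2 signals of 3.27, 3.04 and 3.34 in the PT2385 arrays, against 9.09, 9.24 and 9.28 in the vehicle arrays. The demethylase genes Uty, with means of 2.99 in the PT2385 arm and 8.66 in the vehicle arm, and Kdm5d, with 3.32 and 6.47, were split in the same way. Of 4 listed Y-linked genes 3 were measured, and Ddx3y had no cluster under its symbol. No value of Xist was obtained, so the Y-linked genes could not be set beside it. The labels state no sex. For every result below, sex and PT2385 treatment therefore cannot be told apart as sources of a difference.

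Of the 10 transporter genes 2 passed the test, in opposite directions: Slc7a12 rose and Slc7a13 fell in the PT2385 arm. The other 8 did not pass, and their differences lay between -0.32 and 0.37 on the log2 scale. The test was limma's moderated comparison over all 22206 transcript clusters, with p-values adjusted by the Benjamini-Hochberg method and a threshold of 0.05. It called 0.333% of all clusters higher and 0.495% lower, or 0.829% in all. The median difference was 0.05 for the 10 genes and 0.02 for all clusters. By the size of the difference in either direction, Slc7a12 stood at rank 8 and Slc7a13 at rank 9 of the 22206 clusters. Both were already known to differ when the 10 genes were chosen, so their presence among the 10 says nothing about carriers as a group. The values of the arms did not overlap for 3 of the 10 genes, Slc7a12, Slc7a13 and Slc6a18 (30%). Slc7a12 and Slc6a18 were the higher ones, where this held for 11.6% of all clusters, and Slc7a13 was the lower one, where it held for 9.13%, making 20.7% in all.

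**Figure D1:**
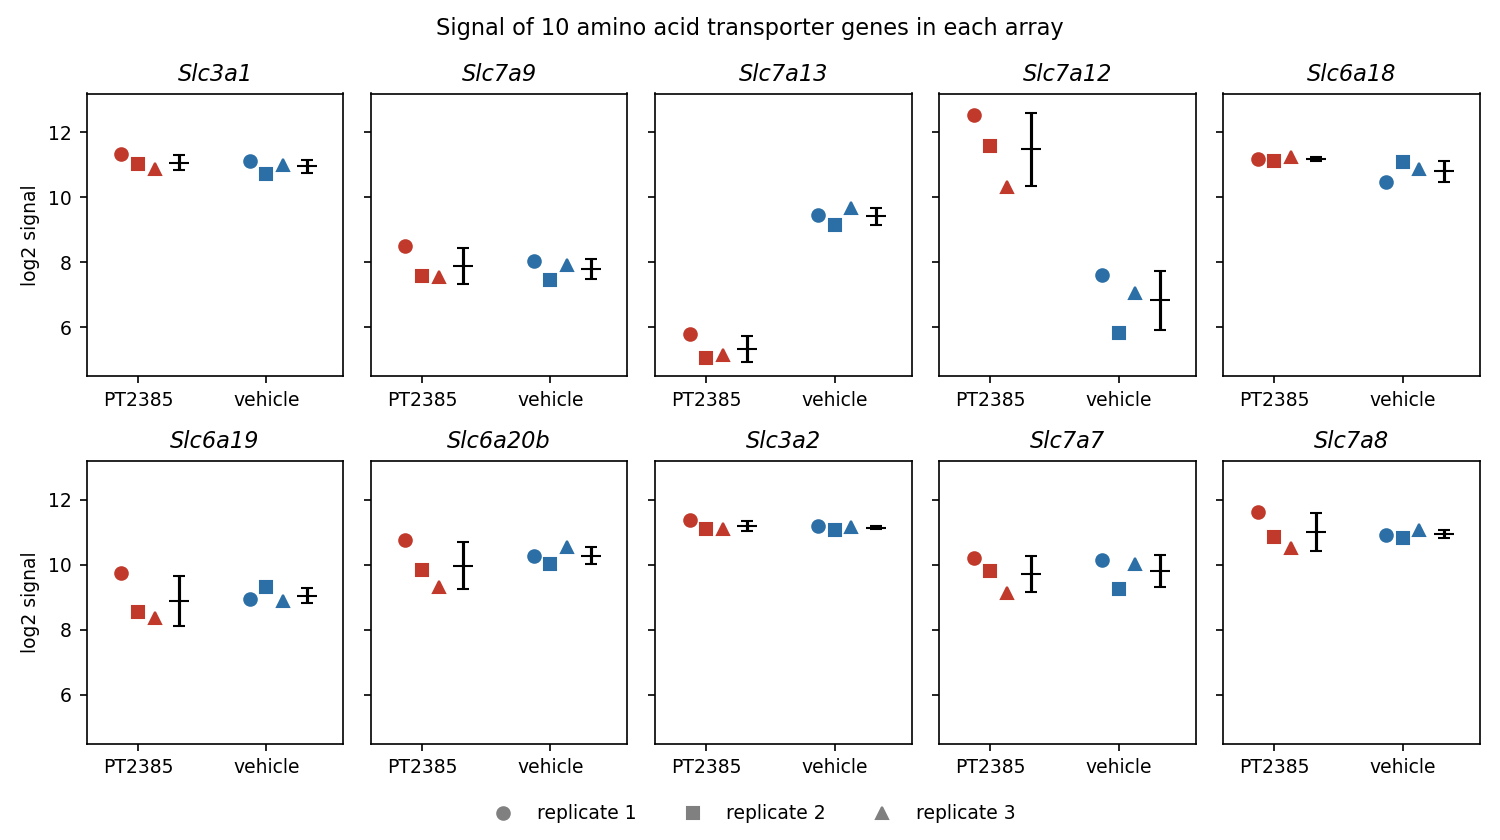
Log2 signal of the 10 transporter genes in each array, with PT2385 on the left (red) and vehicle on the right (blue) of each panel. Each symbol is 1 array, its shape gives the replicate number, and the bars give the mean and SD of 3 arrays. Slc7a12 lay at 10.32 or above in the PT2385 arrays and at 7.61 or below in the vehicle arrays, Slc7a13 lay at 5.80 or below in the PT2385 arrays and at 9.14 or above in the vehicle arrays, and the arms of the other panels overlap or, for Slc6a18, nearly touch.

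Slc7a13 encodes AGT1, a light chain that carries aspartate, glutamate and cystine with rBAT in the last segment (S3) of the mouse proximal tubule. Its cluster on chromosome 4 had log2 signals of 5.80, 5.07 and 5.14 in the PT2385 arrays, against 9.46, 9.14 and 9.66 in the vehicle arrays. Every PT2385 array lay below every vehicle array, with a gap of 3.34 between the nearest values. The means were 5.34 ± 0.40 in the PT2385 arm and 9.42 ± 0.26 in the vehicle arm (SD, n = 3 each). Slc7a13 fell by 4.09 on the log2 scale (SE 0.21, 95% interval -4.56 to -3.61, limma adjusted p = 5.41e-05), which is 17.0-fold. The PT2385 mean was higher than 73.1% of the 5222 negative control rows and lay within the range of the background rows (2.41 to 7.47), so the size of the fall can be understated. The call held in all 15 alternatives.

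Slc7a12 encodes Asc-2, a light chain that carries small neutral amino acids and whose heavy chain is not known. Its cluster on chromosome 3 had log2 signals of 12.54, 11.58 and 10.32 in the PT2385 arrays, against 7.61, 5.83 and 7.07 in the vehicle arrays. All PT2385 arrays lay above all vehicle arrays, with a gap of 2.71, although the values within each arm spread more than those of any other of the 10 genes. The means were 11.48 ± 1.11 in the PT2385 arm and 6.83 ± 0.91 in the vehicle arm (SD, n = 3 each). Slc7a12 rose by 4.64 (SE 0.58, 95% interval 3.33 to 5.96, limma adjusted p = 0.0131), which is 25.0-fold with an interval of 10.1 to 62.2. The vehicle mean lay within the range of the background rows and above 92.9% of the negative control rows. The call was lost without PT2385 replicate 2 (adjusted p = 0.0939), without vehicle replicate 3 (adjusted p = 0.0610) and with trended, robust variance priors (adjusted p = 0.0543), and it held in the other 12 alternatives.

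Of 4 other markers of the S3 segment 0 passed the test, which called 0.829% of all clusters. The differences of these 4 had both signs, 2 positive and 2 negative, between -0.64 and 1.00. All 4 had an unadjusted limma p under 0.05, where this held for 14.5% of all clusters. The flippase gene Atp11a had 10.04, 9.83 and 9.95 in the PT2385 arrays, against 10.59, 10.38 and 10.77 in the vehicle arrays (difference -0.64, SE 0.12, limma adjusted p = 0.0649). The sodium-glucose carrier gene Slc5a1 had 9.64, 9.55 and 9.94 in the PT2385 arrays, against 8.70, 8.93 and 9.46 in the vehicle arrays (difference 0.68, SE 0.19, limma adjusted p = 0.182). The arms did not overlap for these 2 genes, 50% of the 4, where this held for 20.7% of all clusters. The S1 markers Slc5a2 and Slc5a12 had differences of -0.05 and -0.10.

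The brush border heavy chain gene and its main light chain gene overlapped between the arms and did not pass the test. Slc3a1, the rBAT gene that is mutated in cystinuria, had log2 signals of 11.33, 11.02 and 10.87 in the PT2385 arrays, against 11.13, 10.73 and 10.996 in the vehicle arrays. The arms overlapped, and the difference was 0.12 (SE 0.15, 95% interval -0.22 to 0.46, limma adjusted p = 0.746). Slc7a9 encodes the light chain b0,+AT, which exchanges cystine and cationic amino acids for neutral ones and is the other gene of cystinuria. It had 8.52, 7.57 and 7.55 in the PT2385 arrays, against 8.04, 7.45 and 7.91 in the vehicle arrays. These values overlapped too, with a difference of 0.08 (SE 0.27, 95% interval -0.53 to 0.68, limma adjusted p = 0.918). The ratio of Slc7a9 to Slc3a1 within an array changed by -0.04 on the log2 scale between the arm means, while that of Slc7a13 to Slc3a1, the pair that forms the S3 cystine carrier, changed by -4.21.

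The basolateral pairs also overlapped between the arms. The heavy chain gene Slc3a2 had log2 signals of 11.38, 11.11 and 11.11 in the PT2385 arrays, against 11.19, 11.09 and 11.17 in the vehicle arrays, and its interval was the narrowest of the 10 (difference 0.05, 95% interval -0.19 to 0.30, limma adjusted p = 0.865). In linear terms this interval runs from 0.874 to 1.23 times the vehicle level. Slc7a7 encodes y+LAT1, which exports cationic amino acids and is mutated in lysinuric protein intolerance. It had 10.23, 9.83 and 9.14 in the PT2385 arrays, against 10.16, 9.27 and 10.04 in the vehicle arrays, a difference of -0.09 (95% interval -0.78 to 0.60, limma adjusted p = 0.917). Slc7a8 encodes LAT2, an exchanger of neutral amino acids. It had 11.65, 10.85 and 10.51 in the PT2385 arrays, against 10.93, 10.83 and 11.08 in the vehicle arrays, so the PT2385 arrays included both the highest and the lowest value (difference 0.05, 95% interval -0.52 to 0.62, limma adjusted p = 0.941). Slc7a7 and Slc7a8 both lie on chromosome 14, with 23 other annotated genes between them.

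Of the 3 Slc6 genes, Slc6a18 was separated between the arms by a small margin. Slc6a18 encodes B0AT3, a carrier of glycine and other neutral amino acids. Its log2 signals were 11.20, 11.11 and 11.24 in the PT2385 arrays, against 10.47, 11.10 and 10.87 in the vehicle arrays. All PT2385 values were higher, but the nearest values of the arms were only 0.01 apart, and the difference of 0.37 did not pass the test (SE 0.16, 95% interval 0.01 to 0.72, limma adjusted p = 0.333). It was 0.19 without vehicle replicate 1 and 0.51 without vehicle replicate 2. Slc6a19, the Hartnup disorder gene, encodes B0AT1, the main carrier of neutral amino acids at the brush border. It had 9.76, 8.56 and 8.36 in the PT2385 arrays, against 8.95, 9.32 and 8.89 in the vehicle arrays, with overlap and a difference of -0.16 (95% interval -0.90 to 0.58, limma adjusted p = 0.856). Its neighbour Slc6a18 on chromosome 13, with 0 annotated genes between them, was highest in PT2385 replicate 3, the array in which Slc6a19 was lowest.

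Slc6a20b lies beside its close relative Slc6a20a, a proline carrier gene, on chromosome 9 with 0 annotated genes between them. Slc6a20b had log2 signals of 10.76, 9.84 and 9.32 in the PT2385 arrays, against 10.29, 10.02 and 10.56 in the vehicle arrays (difference -0.32, 95% interval -1.04 to 0.41, limma adjusted p = 0.681). Slc6a20a had 8.99, 8.18 and 8.21 in the PT2385 arrays, against 8.13, 8.48 and 8.32 in the vehicle arrays (difference 0.15, limma adjusted p = 0.776). Both overlapped. Cltrn, on the X chromosome, had 11.70, 11.08 and 11.10 in the PT2385 arrays, against 11.81, 11.50 and 11.63 in the vehicle arrays (difference -0.35, limma adjusted p = 0.399).

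**Figure D2:**
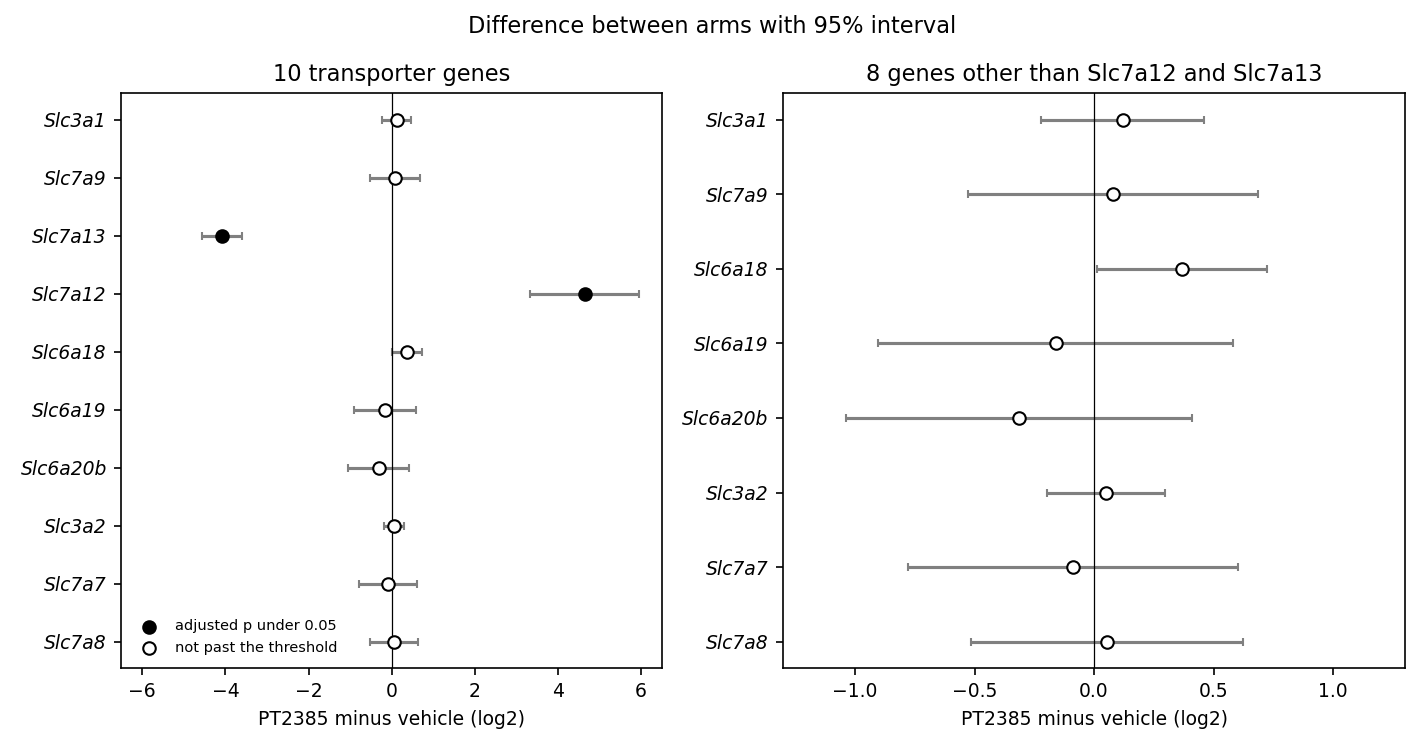
PT2385 minus vehicle difference on the log2 scale, points with 95% intervals from limma. The left panel holds the 10 transporter genes. The right panel, drawn over a narrower range of differences, holds the 8 other than Slc7a12 and Slc7a13. Filled points passed the adjusted threshold of 0.05. Slc7a12 lies at 4.64 and Slc7a13 at -4.09, and the other intervals span 0 except that of Slc6a18, whose lower end is 0.01.

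The spread within the PT2385 arm was wide for most of the 10 genes. The SD was larger in the PT2385 arm than in the vehicle arm for 9 of the 10, all but Slc6a18, where this held for 50.8% of all clusters. PT2385 replicate 1 was the highest of its arm for 9 of the 10 and for 36.8% of all clusters. Replicate 1 was also the highest of its arm for 10 of 11 proximal tubule markers and for 8 of 10 markers of the loop and distal tubule. Over the 8 genes other than Slc7a12 and Slc7a13, the mean deviation from each gene's average of 6 arrays was 0.492, -0.124 and -0.348 in PT2385 replicates 1, 2 and 3, against 0.0330, -0.133 and 0.0802 in the vehicle arrays. Proximal tubule markers deviated by 0.592, 0.0210 and -0.414 in the same PT2385 arrays, against -0.0109, -0.251 and 0.0624 in the vehicle arrays. The transporters and these markers were therefore highest in the same PT2385 array and lowest in the same one. Within the PT2385 arm, loop and distal tubule markers and collecting duct markers fell from replicate 1 to 3 in the same order. This order was therefore not particular to proximal tubule markers. Endothelial, stromal and podocyte markers did not have it, and immune markers had the reverse order. The part of any marker level in the spread of the transporters was not tested.

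Signals were also taken relative to the mean of the 11 proximal tubule markers of the same array, as values without a test. The SD then became smaller for 7 of the 10 genes in the PT2385 arm and for 7 in the vehicle arm. That of Slc7a8 in the PT2385 arm was 0.110 relative to the markers, against 0.580 for the signal as deposited, and that of Slc7a7 was 0.130, against 0.553. In the PT2385 arm the SD became larger for Slc3a1, Slc3a2 and Slc6a18. For Slc6a18, whose deposited signal was nearly flat in this arm, it was 0.525, against 0.0666. In the vehicle arm it became larger for Slc3a2, Slc6a18 and Slc6a19. On this scale the difference was 4.51 for Slc7a12 and -4.22 for Slc7a13. The same value per array was subtracted from every gene, so all 10 differences moved by the same small amount. Differences as large as these could therefore not have changed much, and their size on this scale is no check of them. Slc6a20b had relative values of 10.16, 9.82 and 9.74 in the PT2385 arrays, against 10.30, 10.27 and 10.50 in the vehicle arrays, and so no longer overlapped (difference -0.45), while Slc6a18 then overlapped. Shares over all clusters were not computed on this scale, so these counts and this separation have no background to be set against.

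**Figure D3:**
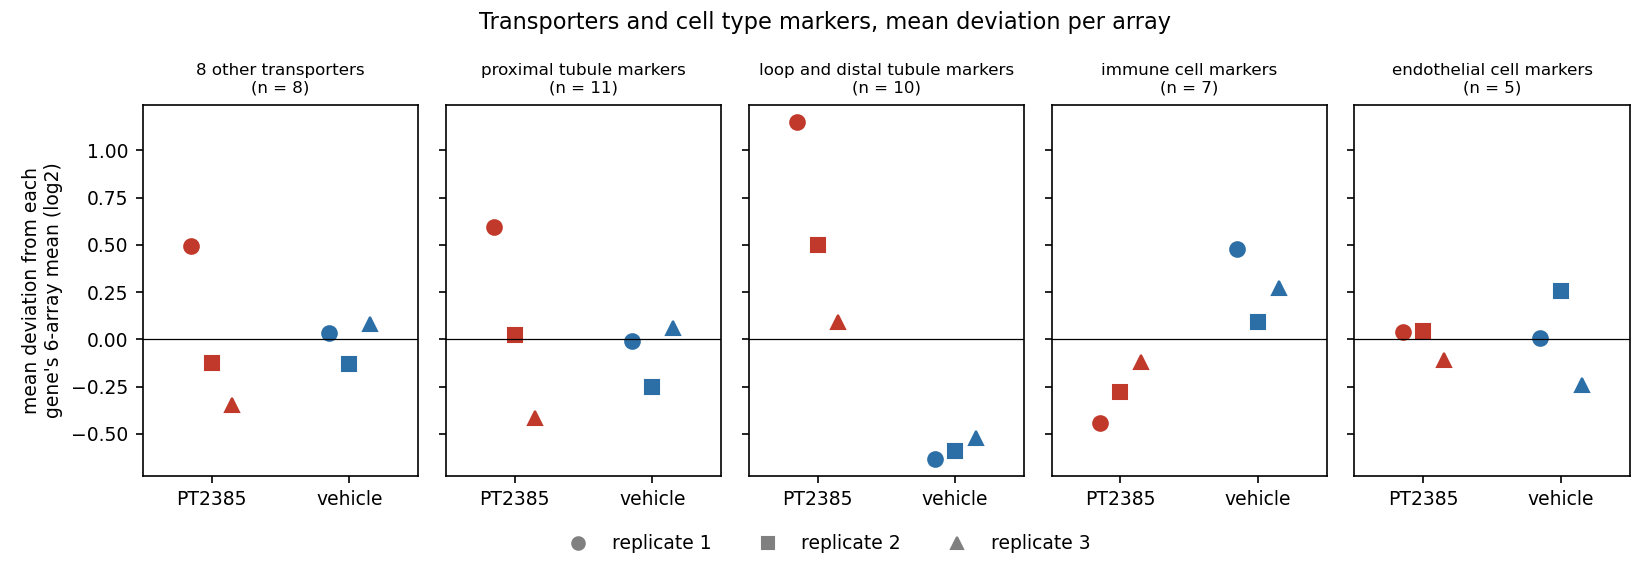
Mean deviation from each gene's average over 6 arrays (log2) for the 8 transporters other than Slc7a12 and Slc7a13 and for 4 marker lists, with PT2385 arrays on the left (red) and vehicle arrays on the right (blue). Each symbol is 1 array and its shape gives the replicate number. Transporters and proximal tubule markers both ran highest in PT2385 replicate 1 (0.492 and 0.592) and lowest in PT2385 replicate 3 (-0.348 and -0.414). Loop and distal tubule markers were also highest in PT2385 replicate 1 and, within that arm, lowest in replicate 3. Loop and distal tubule markers and immune markers were separated between the arms.

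The genes whose profiles over the 6 arrays were most like those of the called transporters were found among 18463 named clusters, by the smallest root mean square distance between log2 values centred on each gene's mean. For Slc7a12 they were the steroid reductase gene Akr1c18 (distance 0.809), the adhesion gene Ceacam2 (distance 1.10) and the fatty acid desaturase gene Scd1 (distance 1.21). Akr1c18 had 11.48, 10.41 and 9.93 in the PT2385 arrays, against 4.999, 5.76 and 5.74 in the vehicle arrays. Like Slc7a12, all 3 were highest in PT2385 replicate 1 and lowest of their arm in replicate 3. This order held for 4768 of all 22206 clusters, and picking genes by their profile favours a shared order. For Slc7a13 they were the organic anion carrier gene Slco1a1 (distance 0.462), the fatty acid hydroxylase gene Cyp4a12a (distance 0.505) and the Y-linked Kdm5d (distance 0.527). Slco1a1 had 4.21, 4.27 and 4.67 in the PT2385 arrays, against 8.79, 8.76 and 9.54 in the vehicle arrays. These distances rest on 6 arrays in 2 arms and mostly measure how alike the differences between the arms are.

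Among 41 other amino acid and peptide carriers of the Slc1, Slc6, Slc7, Slc15, Slc16, Slc36, Slc38 and Slc43 families, limma called 0. It called 0.829% of all clusters, so a list of this size could hold 0 without differing from them. Of the 41, 7 had an unadjusted limma p under 0.05, as did 14.5% of all clusters. Their median difference was -0.04, with 19 positive and 22 negative. Of the 41, 34 had a mean signal above the negative control level, as did 16408 of all 22206 clusters. The arms did not overlap for 8 of them (19.5%), close to the 20.7% of all clusters. PT2385 values were on the upper side for 2 and on the lower side for 6. Over all clusters the balance was the other way, with 11.6% on the upper side and 9.13% on the lower side. The glycine carrier gene Slc6a9 had the smallest p, with 7.98, 7.97 and 8.07 in the PT2385 arrays, against 8.65, 9.07 and 8.56 in the vehicle arrays (difference -0.75, SE 0.14, limma adjusted p = 0.0567). Every PT2385 value of Slc6a9 was lower, and the gene passed in 3 of the 15 alternatives: arrays centred on their median (adjusted p = 0.0445), trended robust priors (adjusted p = 0.0358) and array weights (adjusted p = 0.0214).

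The next 3 by p were also lower without overlap and did not pass. Slc1a4, a carrier of alanine, serine and cysteine, had 5.92, 6.29 and 6.69 in the PT2385 arrays, against 6.72, 7.07 and 7.44 in the vehicle arrays (difference -0.78, SE 0.23, limma adjusted p = 0.191). With the replicate number as a block it passed (adjusted p = 0.0235). The lysosomal proton-coupled carrier gene Slc36a1 had a difference of -0.45 (SE 0.13, limma adjusted p = 0.197), and the neutral amino acid carrier gene Slc6a15 had -0.37 (SE 0.12, limma adjusted p = 0.227).

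**Figure D4:**
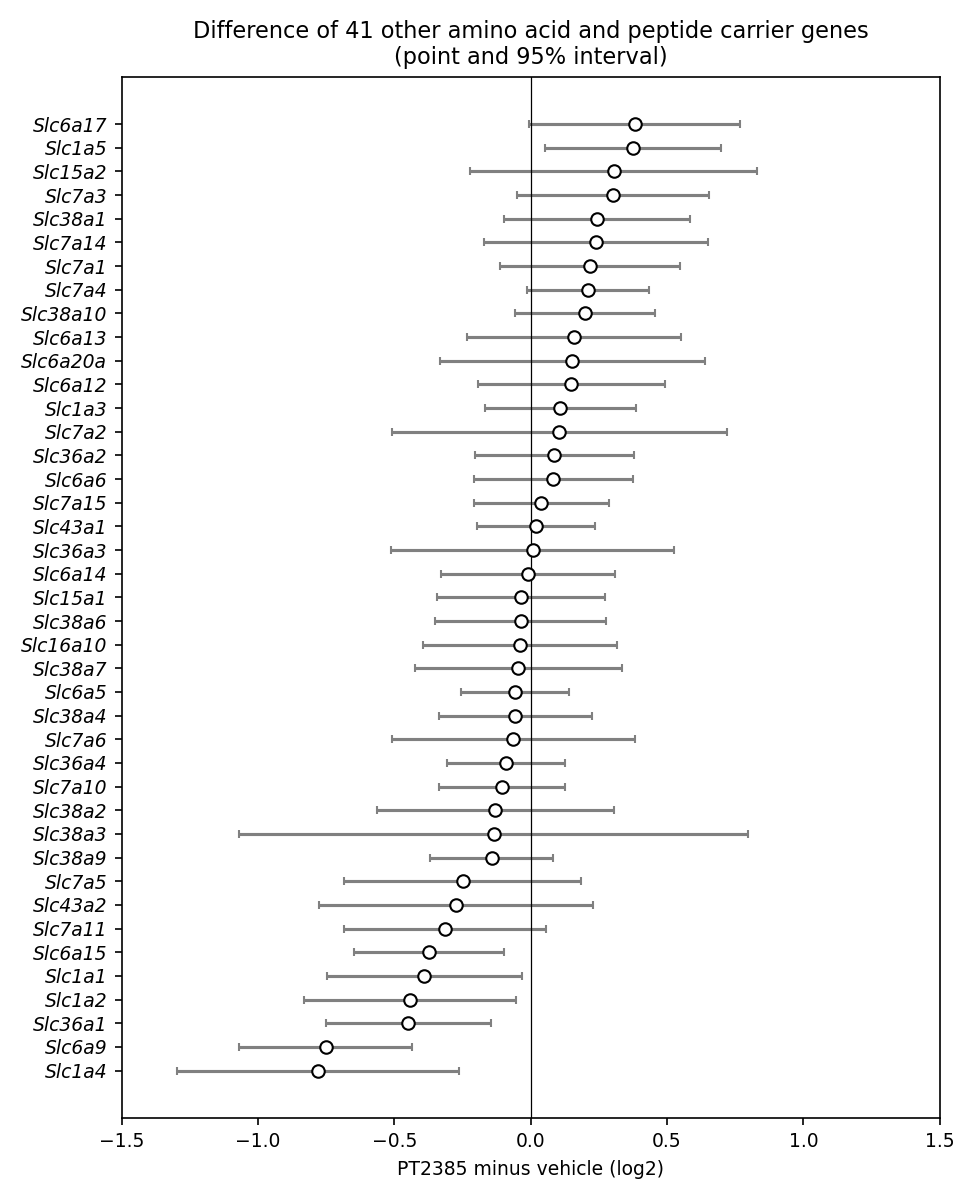
PT2385 minus vehicle difference on the log2 scale for 41 other amino acid and peptide carrier genes, points with 95% intervals from limma, ordered by the difference. The open points mark genes that did not pass the adjusted threshold, which is all 41, and they run between -0.78 for Slc1a4 and 0.38 for Slc6a17.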

How the data were processed

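The authors deposited summarised log2 signals, 1 per transcript cluster and array, and the submitters' processing notes name Transcriptome Analysis Console without a version. How they corrected background, normalized and summarised is not given in the sources used here, and nothing was undone. Of 28846 rows, 6640 control rows were left out and 22206 clusters were tested with no filter. Array medians ran between 6.20 and 6.25. The platform annotation named 19572 clusters with 1 symbol, 0 with several and 2634 with none. Where a symbol had several clusters the brightest over the 6 arrays was to be used.

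The test was that of limma 3.58.1 under R 4.3.3 (lmFit and eBayes, treatment as the only term, 2-sided, Benjamini-Hochberg over all clusters). Differences are PT2385 minus vehicle. On simulated arrays of 22206 clusters, 3 against 3, the fit recovered 20% of changes of 0.5, 86% of changes of 1, 96% of changes of 2 and 100% of changes of 4 on the log2 scale, with 3 false calls. Each size was given to 50 randomly picked clusters. The simulated noise was independent between clusters and equal in both arms, unlike the shared array order and unequal SDs described above. These rates therefore do not give the power or error for the 10 genes. The genes, lists, tests and naming rule were chosen with earlier results of these data known. The rule named all 10 transporters, the 4 other carriers with the smallest p and 2 carrier partners, of which only Cltrn was measured. It also named 3 most alike genes for each called transporter, the Y-linked genes and Xist, for which no value was obtained. Slc6a20a was described outside this rule, as the neighbour of Slc6a20b. No label says that samples are separate animals, so p-values cover only a spread between samples that may be technical. The number of arrays limits the precision. At most 0.234% of values were equal between any 2 arrays. Deviations of equally numbered arrays correlated at 0.138, 0.0252 and -0.0587 for numbers 1, 2 and 3, so the numbers were not taken as pairs. Alternatives were a replicate block, 3 other scalings, a filter on dim clusters, 1 cluster per gene, other priors, array weights, no X and Y chromosomes and the omission of each array. Values relative to proximal tubule markers were added after seeing the data.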

Additional observations from a re-analysis of the deposited data

How the results depend on the processing

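Slc7a13 kept its direction and its call in all 15 alternatives (-4.32 to -3.95, adjusted p between 5.83e-06 and 0.00138). Slc7a12 kept its direction in all 15 (4.12 to 5.22 with single arrays left out) and its call in 12, and its difference with trended robust priors was 4.64. The count of the 10 transporters past the threshold was 2, and it was 1 with trended robust priors and 1 to 2 with single arrays left out. The count over all clusters was 184. It was 456 with array weights and 42 to 179 with single arrays left out, the lowest without PT2385 replicate 2, and 81, 65 and 72 without vehicle replicates 1, 2 and 3. With arrays centred on their median, 57 clusters were higher and 135 lower, against 74 and 110 as deposited. Of the other 41 carriers, 1 was called with the replicate block, 1 with centred arrays, 1 with trended robust priors and 1 with array weights. As a block the replicate number gave 178 calls over all clusters and 2 among the 10 transporters, Slc7a12 (adjusted p = 0.00276) and Slc7a13, and it changed no other call of the 10. The 8 remaining transporters passed in 0 of 120 values, 1 per gene and alternative (limma adjusted p 0.150 to 0.998). Their sign turned in 15 of these, 12 of them with an array left out. Alternatives that changed only the filter, the priors or the block left each difference as it was, so these values are not independent checks. With array weights Slc7a8 was at -0.0505, Slc7a9 at -0.10 and Slc3a2 at -0.0041. With single arrays left out Slc7a7 ran from -0.37 to 0.21, Slc7a8 from -0.27 to 0.30, Slc7a9 from -0.24 to 0.24, Slc3a1 from -0.0083 to 0.22, Slc3a2 from -0.0405 to 0.10, Slc6a18 from 0.19 to 0.51, Slc6a19 from -0.59 to 0.11 and Slc6a20b from -0.71 to 0.0091. The cause of these changes was not tested. No next brightest cluster could be tried, since each of the 10 genes had 1. Dim signals limit the sizes for Slc7a12 and Slc7a13.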
